A study of Mus musculus with 12 samples.

Results

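The 9 genes described here encode the costimulatory and checkpoint molecules through which macrophages talk to T cells. These are Cd40, Cd80, Cd86, Cd83, Icosl, Cd274, Pdcd1lg2, Havcr2 and Vsir. They were taken by gene symbol from a count table of 35275 genes. All 9 were in the table, and all 9 passed the filter on low counts that left 12849 genes for testing.

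RNA was sequenced from bone-marrow-derived macrophages (BMDMs), which are grown in culture from the marrow of wildtype mice. Each of 3 groups held 4 libraries, numbered 1 to 4: DMSO, the solvent alone, olaparib, an inhibitor of the PARP enzymes that build poly(ADP-ribose) chains from NAD, and MNA, N-methylnicotinamide, a small molecule derived from NAD metabolism. Every culture, DMSO included, also received the cytokines M-CSF, IL-4 and IL-10 for the same 6 days, so no group held resting or untreated cells. The study speaks of several donor mice, and the labels name neither their strain nor their age. The protocols name no T cells or tumor cells in these cultures, and the RNA was measured in bulk, where fewer cells of a type and less RNA per cell cannot be told apart.

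T cells respond to an antigen only when the cell that presents it also gives a costimulatory signal. CD80 and CD86, the B7 ligands, give it through CD28 and withdraw it through the higher-affinity receptor CTLA-4, and ICOS ligand (Icosl) acts through ICOS. CD40 receives the reverse signal, CD40 ligand on helper T cells, and drives B7 expression in presenting cells. PD-L1 (Cd274) and PD-L2 (Pdcd1lg2) bind PD-1 and restrain T cells, TIM-3 (Havcr2) is an inhibitory receptor that myeloid cells carry too, and VISTA (Vsir) is a B7-related inhibitory molecule abundant on myeloid cells. PD-L1 is induced by interferons and PD-L2 by IL-4 through STAT6.

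The libraries held 21146291 to 31446849 counts on genes, and the depths of the 3 groups overlapped. The library labelled MNA replicate 2 stood with the DMSO libraries and not with the other MNA libraries. Along the first principal component, which held 49.8% of the variance over genes, it lay at -36.0, the DMSO libraries lay between -43.7 and -33.6, and the other 3 MNA libraries lay between 59.9 and 63.4. Results of the 9 genes are therefore given with all 12 libraries and with the 11 that remain without MNA replicate 2, for which 13023 genes were tested. For other genes named below, both values are given where the call differed. All 9 macrophage markers, among them Csf1r, Adgre1 and Cd68, were detected in every library (the lowest, Fcgr1, had 3 to 24 reads with MNA), with a summed level of 4231 to 5353 CPM with DMSO, 8773 to 10530 with olaparib and 3928 to 7719 with MNA. Levels are given in CPM, the counts of a gene relative to the library total, scaled by edgeR's TMM factors. Calls rest on edgeR's quasi-likelihood test, with p-values adjusted over all tested genes (Benjamini-Hochberg) and a threshold of 0.05. Fold changes are on the log2 scale with their standard error (SE).

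Olaparib raised Cd80, lowered Cd40 and left the other 7 genes without a call in 12 libraries fitted without a block. With the replicate number as a block, Cd274 was also called lower (edgeR adjusted p = 0.0393), as it was by DESeq2 (adjusted p = 0.0259). MNA raised Cd86, Cd83 and Vsir, and in the 11 libraries also raised Icosl and lowered Cd40, Cd80, Pdcd1lg2 and Havcr2. For comparison, olaparib called 14.3% of all tested genes higher and 12.8% lower than DMSO, against 1 of 9 members in each direction. MNA called 16.3% of all genes higher, against 3 of 9 members, and 12.3% lower, against 0 of 9 in this edgeR fit. At an unadjusted p under 0.05 the last count was 4 of 9, beside 21.4% of all genes. With MNA, DESeq2 called 4 of 9 higher and 4 of 9 lower, beside 18.9% and 15.7% of all genes, and the replicate block called 3 higher and 2 lower, beside 17% and 15.4%. Without MNA replicate 2 the shares for olaparib were 22.5% higher and 21.2% lower, against 1 and 2 of 9 members, and those for MNA were 27.2% higher and 26.9% lower, against 4 of 9 in each direction. The median log2 fold change of the 9 members was -0.04 with olaparib and -0.29 with MNA, and -0.04 and -0.32 without MNA replicate 2, beside a median over all genes that rounded to 0.00 or, for olaparib without MNA replicate 2, 0.01.

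**Figure D1:**
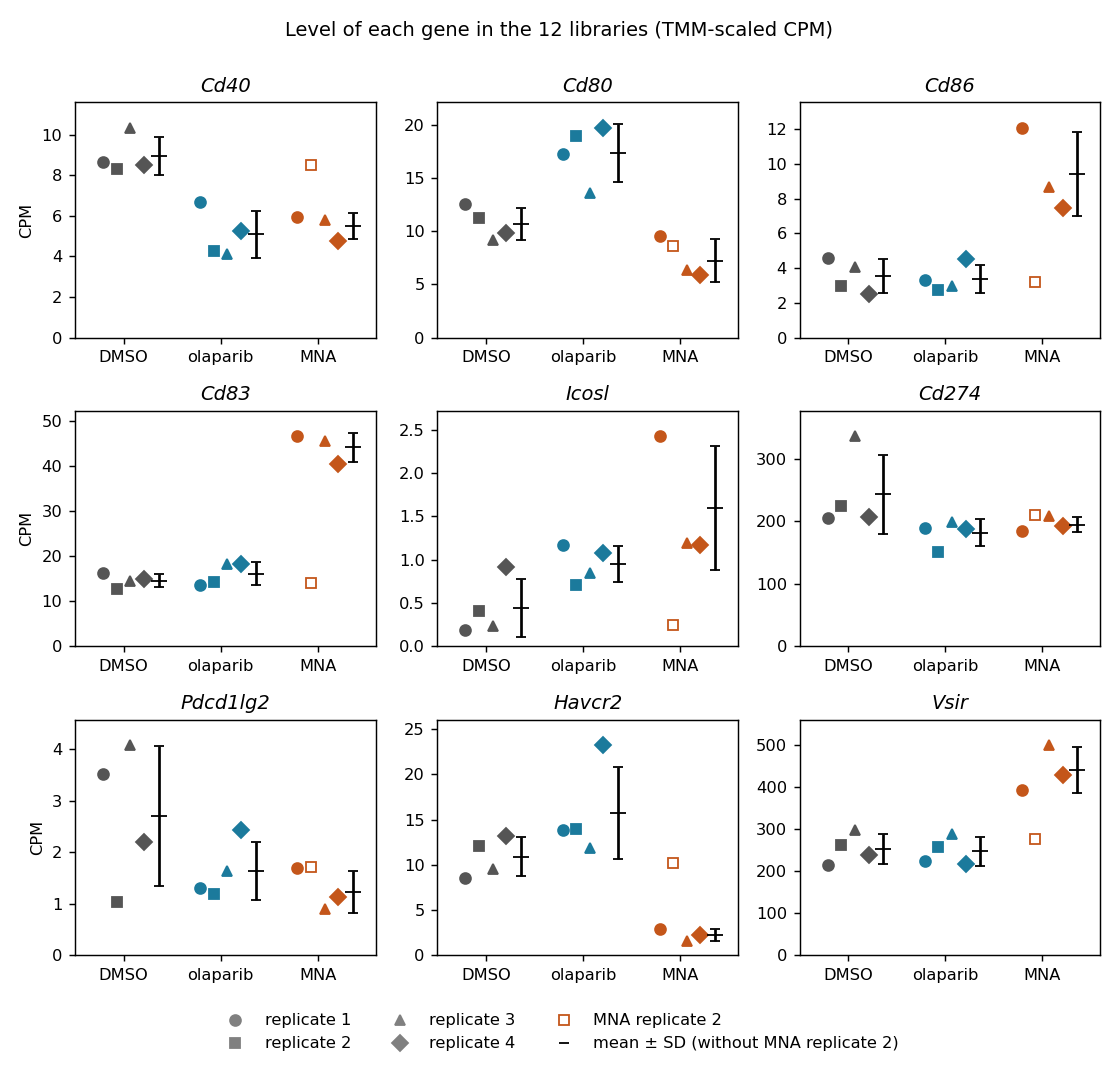
Level of each of the 9 genes in the 12 libraries, in TMM-scaled CPM on a linear axis from 0; symbols give the replicate number, the open square is MNA replicate 2, and the bar is the mean ± SD without it (n = 4, 4 and 3). The 3 filled MNA points sit above all DMSO points for Cd86, Cd83, Icosl and Vsir and below them for Cd40 and Havcr2. The 4 olaparib points sit above all DMSO points for Cd80 and below them for Cd40 and Cd274. How many of all tested genes separate in this way was not counted. In 11 libraries 27.2% of them were called higher and 26.9% lower with MNA, and 22.5% and 21.2% with olaparib.

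Cd80 (ENSMUSG00000075122, GRCm38 chr16:38455561-38496335, plus strand), the B7 ligand with the higher affinity for CTLA-4, moved in opposite directions with the treatments. DMSO replicates 1 to 4 had 12.6, 11.2, 9.11 and 9.84 CPM, olaparib replicates had 17.2, 18.9, 13.6 and 19.7 CPM, and MNA replicates had 9.50, 8.63, 6.33 and 5.83 CPM. All 4 olaparib libraries lay above every DMSO library, while MNA replicate 1 lay inside the DMSO range and the other 3 MNA libraries below it. Cd80 rose 1.63-fold with olaparib (log2 fold change 0.70 ± 0.17 SE, edgeR adjusted p = 0.0121), and kept its call when each library was left out in turn (0.63 to 0.80). With MNA its log2 fold change was -0.49 ± 0.18 (adjusted p = 0.0516) in 12 libraries, and -0.56 ± 0.18 (adjusted p = 0.0163) without MNA replicate 2. The replicate number as a block gave a call in 12 libraries (-0.50, adjusted p = 0.0243). Leaving out olaparib replicate 3, which enters the shared estimate of the spread, also gave a call with MNA (-0.50, adjusted p = 0.0490). Tested directly, Cd80 was 2.29-fold higher with olaparib than with MNA (log2 1.20 ± 0.18, adjusted p = 0.0007), and 2.41-fold without MNA replicate 2 (1.27 ± 0.18, adjusted p = 7.16e-05).

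The RefSeq start regions (GRCm38.p6, 250 bases before to 50 after the start) were searched for 8 short motifs on both strands, and 6 of the 9 genes had such a region. The share of all 32851 regions that held each motif was 8.30% for the GAS (TTCNNNGAA), 6.95% for the STAT6 site (TTCNNNNGAA), 3.44% for the IRF site (GAAANNGAAA), 4.51% for the NF-kappaB site, 7.81% for the AP-1 site (TGANTCA), 12.4% for the antioxidant response element (TGACNNNGC), 7.15% for the E-box (CACGTG) and 28.3% for the PU.1 core (GAGGAA). The Cd80 region is shown as that of the gene that moved in opposite directions with the treatments. It starts inside the GENCODE gene model and not at its first base, lies on the plus strand, and holds an AP-1 match that begins at position -42 and stands in capitals; a match is a description of the sequence and was not tested as a binding site.
Cd80 promoter, chr16:38458683-38458982: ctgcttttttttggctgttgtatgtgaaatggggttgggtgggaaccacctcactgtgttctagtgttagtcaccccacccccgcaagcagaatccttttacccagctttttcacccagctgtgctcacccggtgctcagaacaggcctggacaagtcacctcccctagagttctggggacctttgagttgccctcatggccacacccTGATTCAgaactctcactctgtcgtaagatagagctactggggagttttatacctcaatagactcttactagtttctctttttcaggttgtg

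Cd86 (ENSMUSG00000022901, chr16:36603869-36666081, minus strand), the other B7 ligand, which resting myeloid cells usually carry before CD80, responded to MNA and not measurably to olaparib. Its level was 4.59, 2.99, 4.09 and 2.51 CPM in DMSO replicates 1 to 4, 3.29, 2.71, 2.99 and 4.49 CPM with olaparib, and 12.1, 3.22, 8.68 and 7.48 CPM with MNA. MNA replicates 1, 3 and 4 lay above every DMSO and olaparib library, and MNA replicate 2 lay inside the DMSO range. Cd86 was 2.22-fold higher with MNA in 12 libraries (log2 1.15 ± 0.34, adjusted p = 0.0289) and 2.67-fold without MNA replicate 2 (1.42 ± 0.23, adjusted p = 0.000149). With MNA replicate 2 kept in, the call was lost without DMSO replicate 2 (1.08, adjusted p = 0.0730), DMSO replicate 3 (1.23, 0.0579), DMSO replicate 4 (1.02, 0.0748), MNA replicate 1 (0.87, 0.0905), MNA replicate 3 (1.11, 0.0792) or MNA replicate 4 (1.18, 0.0710). With olaparib the log2 fold change was -0.06 ± 0.34 (adjusted p = 0.901), and -0.06 ± 0.23 (0.856) without MNA replicate 2.

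The balance of the B7 ligands stood apart in each treatment. Per kilobase of exon, the ratio of Cd80 to Cd86 was 2.70, 3.70, 2.20 and 3.88 in DMSO replicates 1 to 4, and 5.19, 6.91, 4.50 and 4.34 with olaparib. With MNA it was 0.777, 0.721 and 0.771 in replicates 1, 3 and 4, and 2.65 in replicate 2. Cd80 RNA was thus the more abundant per length in every library except those 3, in which Cd86 was. Every olaparib ratio was above every DMSO ratio; the ratio itself was described and not tested.

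Cd83 (ENSMUSG00000015396, chr13:43784775-43803132, plus strand) encodes an immunoglobulin family protein of activated presenting cells that holds MHC class II and CD86 on the surface. It rose with MNA. The DMSO libraries had 16.3, 12.6, 14.4 and 15.01 CPM, the olaparib libraries 13.6, 14.2, 18.3 and 18.1 CPM, and the MNA libraries 46.6, 14.04, 45.5 and 40.5 CPM. MNA replicates 1, 3 and 4 were all above the highest of the DMSO and olaparib libraries, and MNA replicate 2 was inside the DMSO range. Cd83 rose 2.51-fold with MNA in 12 libraries (log2 1.33 ± 0.29, adjusted p = 0.0150), a call lost without MNA replicate 3 (1.22, adjusted p = 0.0522). Without MNA replicate 2 it rose 3.03-fold (1.60 ± 0.11, adjusted p = 7.65e-08), and the gene stood above 95.4% of all tested genes in log2 fold change. With olaparib its log2 fold change was 0.14 ± 0.29 (adjusted p = 0.739), and 0.14 ± 0.11 (0.316) without MNA replicate 2. Cd83 was lower with olaparib than with MNA by both fits (log2 -1.19, adjusted p = 0.0130, and -1.46, adjusted p = 3.95e-07), as was Cd86 (-1.22, 0.0237, and -1.48, 0.000183). The Cd86 difference was not called without olaparib replicate 1 (-1.21, 0.0577), 2 (-1.13, 0.0690) or 3 (-1.16, 0.0643), or without MNA replicate 1 (-0.94, 0.0719) or 3 (-1.18, 0.0575).

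Cd40 (ENSMUSG00000017652, chr2:165055627-165072948, plus strand), the receptor for CD40 ligand, was lower with both treatments. It had 8.67, 8.29, 10.4 and 8.51 CPM in DMSO replicates 1 to 4, 6.68, 4.28, 4.12 and 5.26 CPM with olaparib, and 5.92, 8.49, 5.79 and 4.75 CPM with MNA. All 4 olaparib libraries and MNA replicates 1, 3 and 4 lay below every DMSO library, and MNA replicate 2 lay inside the DMSO range. Cd40 fell 1.76-fold with olaparib (log2 -0.81 ± 0.19, adjusted p = 0.0107), with a call in each of the 12 fits that left out a library (-0.97 to -0.73). With MNA the log2 fold change was -0.52 ± 0.19 (adjusted p = 0.0589) in 12 libraries, and Cd40 fell 1.64-fold without MNA replicate 2 (-0.71 ± 0.17, adjusted p = 0.0026). The difference between olaparib and MNA was not called (log2 -0.29 ± 0.20, adjusted p = 0.309, and -0.10 ± 0.17, 0.655).

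Icosl (ENSMUSG00000000732, chr10:78069302-78083913, plus strand), the ligand of ICOS, was barely expressed, with 4 to 29 reads in the DMSO libraries, 18 to 33 with olaparib and 7 to 59 with MNA. In CPM these were 0.188, 0.413, 0.235 and 0.921 for DMSO replicates 1 to 4, 1.17, 0.707, 0.841 and 1.08 for olaparib, and 2.43, 0.251, 1.20 and 1.17 for MNA. MNA replicates 1, 3 and 4 lay above all DMSO libraries, whereas DMSO replicate 4 overlapped the olaparib libraries and MNA replicate 2 lay among the DMSO libraries. With MNA the log2 fold change was 1.47 ± 0.59 (adjusted p = 0.0774) in 12 libraries, and Icosl rose 3.48-fold without MNA replicate 2 (1.80 ± 0.46, adjusted p = 0.0043). It was also called without DMSO replicate 4 (2.13, adjusted p = 0.0488). With olaparib the log2 fold change was 1.07 ± 0.60 (adjusted p = 0.197), and 1.06 ± 0.45 (0.0685) without MNA replicate 2.

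**Figure D2:**
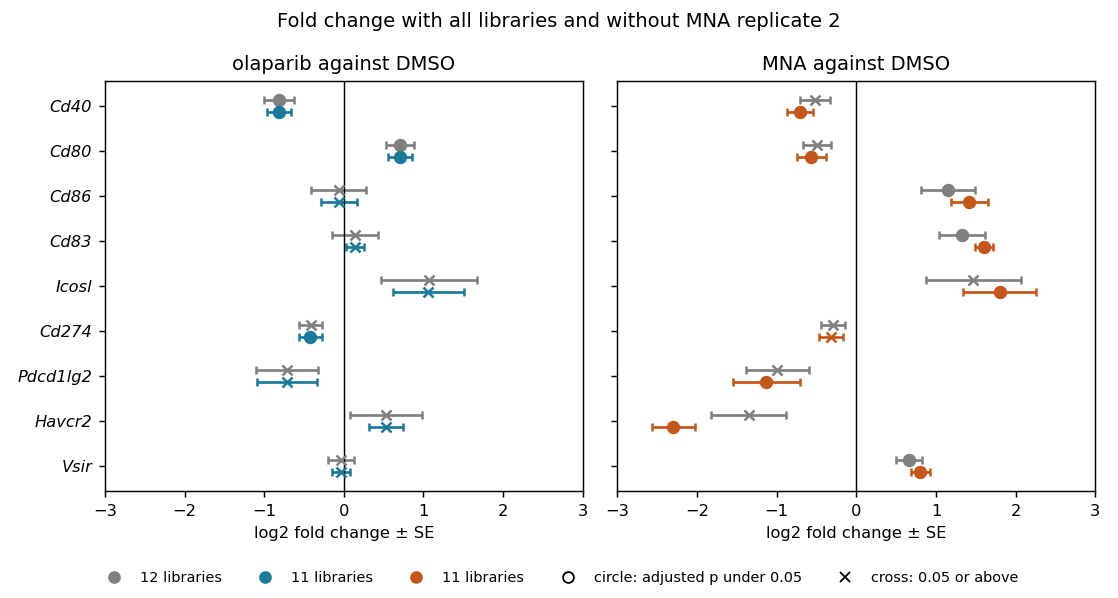
Log2 fold change ± SE of the 9 genes for olaparib against DMSO (left) and MNA against DMSO (right), in gray for all 12 libraries and in color for the 11 without MNA replicate 2; circles mark an edgeR adjusted p under 0.05 and crosses 0.05 or above. Leaving out MNA replicate 2 hardly moved the olaparib values and moved Havcr2 with MNA from -1.35 to -2.30.

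Cd274 (ENSMUSG00000016496, chr19:29367455-29388095, plus strand), which encodes PD-L1, was among the most abundant transcripts of the list and was lower with olaparib by a small margin. The DMSO libraries had 205, 225, 336 and 207 CPM, the olaparib libraries 190, 152, 199.6 and 187 CPM, and the MNA libraries 184, 209, 208 and 192 CPM. All 4 olaparib libraries lay below every DMSO library, MNA overlapped DMSO, and DMSO replicate 3 was far above the other DMSO libraries. The log2 fold change with olaparib was -0.42 ± 0.15 (edgeR adjusted p = 0.0528) in 12 libraries, -0.40 with the replicate number as a block (adjusted p = 0.0393), and -0.42 ± 0.14 (0.0257) without MNA replicate 2. Cd274 was also called lower without DMSO replicate 1 (-0.49, 0.0403) or DMSO replicate 4 (-0.49, 0.0494), and without DMSO replicate 3 the value was -0.22 (0.123). With MNA it was -0.29 ± 0.15 (0.140) in 12 libraries and -0.32 ± 0.15 (0.0877) without MNA replicate 2, where the block gave a call (-0.36, 0.0126). No difference between the treatments was called (log2 -0.12 ± 0.15, 0.587, and -0.10 ± 0.15, 0.635). In the annotation, 14.1% of the exon bases of Cd274 also lie in AC119228.1, an antisense gene on the opposite strand, and the strand setting of the counts is not given in the sources used here.

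Pdcd1lg2 (ENSMUSG00000016498, chr19:29410919-29471161, plus strand) encodes PD-L2 and lies next to Cd274, but it was a low transcript that varied widely between DMSO libraries. DMSO replicates 1 to 4 had 3.52, 1.03, 4.09 and 2.19 CPM, olaparib replicates had 1.31, 1.18, 1.64 and 2.44 CPM, and MNA replicates had 1.69, 1.72, 0.888 and 1.13 CPM. DMSO replicate 2 was as low as the treated libraries, and olaparib replicate 4 was also above DMSO replicate 4. Both treatments thus overlapped DMSO. With olaparib the log2 fold change was -0.71 ± 0.39 (adjusted p = 0.192), and -0.71 ± 0.38 (0.143) without MNA replicate 2. With MNA it was -0.99 ± 0.40 (adjusted p = 0.0768) in 12 libraries, and Pdcd1lg2 fell 2.19-fold without MNA replicate 2 (-1.13 ± 0.43, adjusted p = 0.0375), a call not made when only the MNA and DMSO libraries were fitted (-1.12, 0.0510). The value without DMSO replicate 2 was -1.26 (0.0447). The ratio of Cd274 to Pdcd1lg2 per kilobase ranged from 31.5 to 118 with DMSO, 41.5 to 78.6 with olaparib and 59.1 to 127 with MNA, so PD-L1 RNA exceeded PD-L2 RNA in every library and the groups overlapped.

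The start region of Pdcd1lg2, on the plus strand, is shown because IL-4, which was in every culture, signals through STAT6. It held a STAT6 match that begins at position -82, which overlaps a PU.1 core on the minus strand at the same position, and an NF-kappaB match that begins at position -244; capitals mark the matches. The regions of Cd274 and Icosl held none of the 8 motifs as spelled here.
Pdcd1lg2 promoter, chr19:29410669-29410968: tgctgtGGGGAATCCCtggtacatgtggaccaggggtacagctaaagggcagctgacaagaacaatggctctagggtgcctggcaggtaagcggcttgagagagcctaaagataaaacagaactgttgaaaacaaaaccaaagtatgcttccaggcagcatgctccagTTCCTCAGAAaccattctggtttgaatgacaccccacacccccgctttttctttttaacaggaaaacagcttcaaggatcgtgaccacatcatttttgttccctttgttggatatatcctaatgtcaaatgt

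Havcr2 (ENSMUSG00000020399, chr11:46454935-46481255, plus strand), which encodes TIM-3, fell with MNA. DMSO replicates 1 to 4 had 8.58, 12.1, 9.55 and 13.2 CPM, olaparib replicates had 13.8, 13.99, 11.8 and 23.3 CPM, and MNA replicates had 2.88, 10.2, 1.58 and 2.21 CPM. MNA replicates 1, 3 and 4 lay below every other library, MNA replicate 2 lay among the DMSO libraries, and olaparib overlapped DMSO through replicate 3. Without MNA replicate 2 Havcr2 fell 4.91-fold with MNA (log2 -2.30 ± 0.27, edgeR adjusted p = 9.03e-06), lower than 97.9% of tested genes, and in 12 libraries the log2 fold change was -1.35 ± 0.47 (0.0502), or -1.55 (0.0258) with the replicate number as a block. With olaparib it was 0.53 ± 0.45 (0.400) in 12 libraries and 0.53 ± 0.21 (0.0529) without MNA replicate 2, where the replicate block gave a call (0.50, 0.0117). Havcr2 was 3.69-fold higher with olaparib than with MNA in 12 libraries (log2 1.88 ± 0.48, adjusted p = 0.0156) and 7.10-fold without MNA replicate 2 (2.83 ± 0.27, adjusted p = 2.62e-06).

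Vsir (ENSMUSG00000020101, chr10:60346851-60372684, plus strand), which encodes VISTA, rose with MNA and did not pass the test with olaparib. It had 214, 263, 297 and 238 CPM in DMSO replicates 1 to 4, 225, 258, 289 and 216 CPM with olaparib, and 394, 276, 501 and 431 CPM with MNA. MNA replicates 1, 3 and 4 exceeded every other library, MNA replicate 2 was inside the DMSO range, and olaparib and DMSO covered nearly the same range. Vsir was 1.58-fold higher with MNA in 12 libraries (log2 0.66 ± 0.17, adjusted p = 0.0198) and 1.74-fold without MNA replicate 2 (0.80 ± 0.12, adjusted p = 8.20e-05). With MNA replicate 2 kept in, the call was lost without MNA replicate 1 (0.67, adjusted p = 0.0527), 3 (0.54, 0.0627) or 4 (0.63, 0.0623). With olaparib the log2 fold change was -0.04 ± 0.17 (adjusted p = 0.888), and -0.04 ± 0.11 (0.813) without MNA replicate 2. Vsir was lower with olaparib than with MNA (log2 -0.70 ± 0.17, adjusted p = 0.0118, and -0.84 ± 0.12, 9.44e-05).

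Vsir and Havcr2, both inhibitory, thus moved apart with MNA. Their ratio per kilobase was 9.78 to 16.9 with DMSO and 5.04 to 13.3 with olaparib. It was 74.2, 172 and 106 in MNA replicates 1, 3 and 4, and 14.6 in MNA replicate 2. The start regions of this pair, both on the plus strand, are set out for comparison: Havcr2 held an AP-1 match that begins at position -200 and a PU.1 core at position -8, in capitals, and Vsir held none of the 8 motifs as spelled here.
Havcr2 promoter, chr11:46454681-46454980: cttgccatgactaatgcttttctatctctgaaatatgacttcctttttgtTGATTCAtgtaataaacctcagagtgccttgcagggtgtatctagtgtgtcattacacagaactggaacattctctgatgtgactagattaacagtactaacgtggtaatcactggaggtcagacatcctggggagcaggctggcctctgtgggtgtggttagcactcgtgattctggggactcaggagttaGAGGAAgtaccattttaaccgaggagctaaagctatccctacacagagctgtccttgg
Vsir promoter, chr10:60346601-60346900: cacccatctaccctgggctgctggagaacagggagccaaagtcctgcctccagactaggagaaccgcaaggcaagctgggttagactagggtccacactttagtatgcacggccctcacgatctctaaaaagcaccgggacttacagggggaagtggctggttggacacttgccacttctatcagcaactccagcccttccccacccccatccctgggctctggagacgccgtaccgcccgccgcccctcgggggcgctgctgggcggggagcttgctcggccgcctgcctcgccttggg

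**Figure D3:**
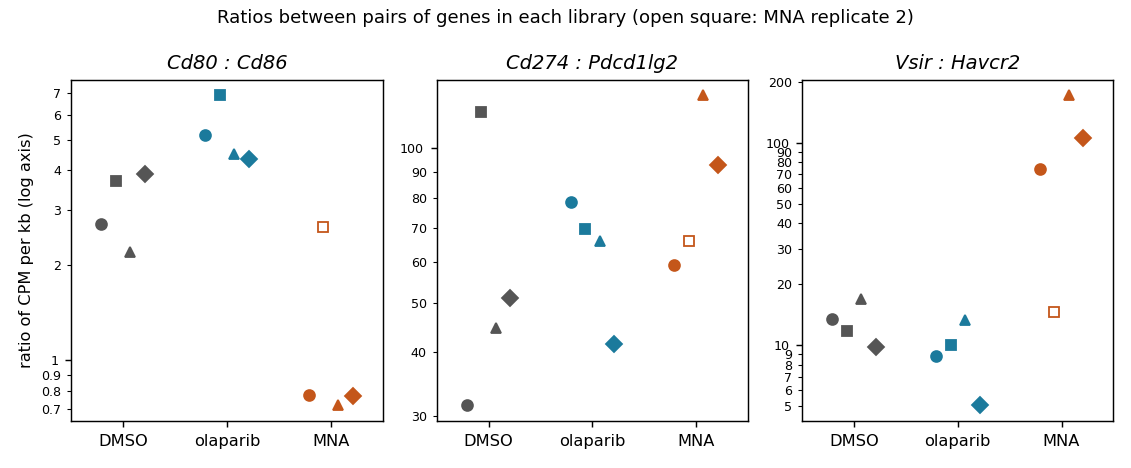
Ratios between pairs of genes in each library, from CPM per kilobase of exon, on log axes; symbols give the replicate number as in the plot of levels and the open square is MNA replicate 2. The 3 filled MNA points lie below 1 for Cd80 to Cd86 and between 74.2 and 172 for Vsir to Havcr2, apart from all DMSO and olaparib points, while the groups overlap for Cd274 to Pdcd1lg2.

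Tested against each other, olaparib and MNA differed at 5 of the 9 genes with 12 libraries, and at the same 5 without MNA replicate 2. Cd80 and Havcr2 were higher with olaparib, and Cd86, Cd83 and Vsir were lower, as given above. Over all tested genes 10.9% were called higher and 10.9% lower with olaparib than with MNA, and 21.5% and 20.7% without MNA replicate 2, against 2 and 3 of 9 members in both fits. The remaining 4 genes, Cd40, Cd274, Pdcd1lg2 and Icosl, had log2 differences of -0.29, -0.12, 0.28 and -0.39, with SE of 0.20, 0.15, 0.41 and 0.56. The comparisons of each treatment with DMSO share the 4 DMSO libraries, so their values are set side by side and not correlated.

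Divided by exon length, the 9 transcripts covered a wide range. With DMSO, Cd274 had 67.1 ± 17.3 CPM per kilobase (SD, n = 4) and Vsir 50.5 ± 7.14, and their ranges overlapped. Cd83 followed at 5.67 ± 0.589, then Havcr2 at 3.99 ± 0.794, Cd80 at 2.88 ± 0.412 and Cd40 at 2.63 ± 0.277. Of these neighbors, Havcr2 and Cd80 overlapped, as did Cd80 and Cd40. Pdcd1lg2 at 1.38 ± 0.699 and Cd86 at 0.969 ± 0.263 overlapped too, and Icosl was lowest at 0.0950 ± 0.0726. PD-L1 and VISTA RNA stood above 95.2% and 93.5% per kilobase of the 12795 tested genes that had an exon length.

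The order per kilobase stayed nearly the same with olaparib and changed with MNA. With olaparib, Cd274 (50.3 ± 5.80) and Vsir (49.2 ± 6.67) overlapped, Cd83 (6.25 ± 0.974), Havcr2 (5.78 ± 1.88) and Cd80 (4.69 ± 0.736) overlapped as neighbors, and so did Cd86 (0.920 ± 0.215) and Pdcd1lg2 (0.837 ± 0.289). In the 3 MNA libraries without replicate 2, Vsir (88.1 ± 10.9) was above Cd274 (53.8 ± 3.32) with no overlap, and Cd83 reached 17.2 ± 1.25. Cd86 (2.57 ± 0.653) came next, ahead of Cd80 (1.95 ± 0.537) and Cd40 (1.61 ± 0.189), although Cd86 and Cd80 overlapped, as did Cd80 and Cd40. Havcr2 (0.817 ± 0.238) had dropped to the level of Pdcd1lg2 (0.629 ± 0.209), with overlap, and Icosl was lowest at 0.346 ± 0.156.

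**Figure D4:**
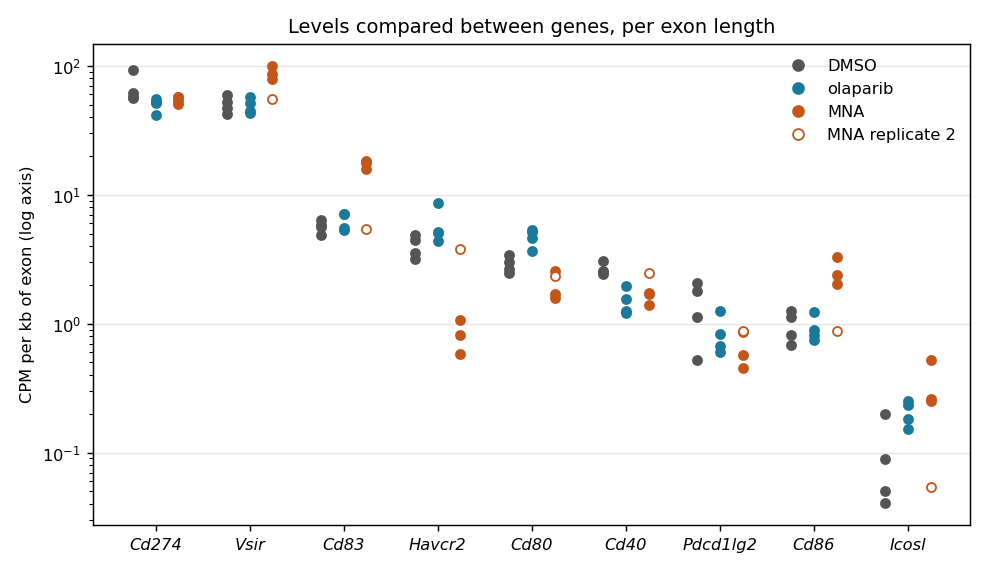
Levels per kilobase of exon on a log axis, in CPM per kb, for the 9 genes ordered by their DMSO mean; each point is a library, colored by group, and the open circle is MNA replicate 2. Cd274 and Vsir lie above the other 7 genes in every library, while Icosl lies at or below 0.525.

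Other ligands of the same function were counted beside the shares of all genes given above, and the difference in counts between the treatments was not tested. Of 22 further costimulatory and coinhibitory ligands, 13 were tested; 7 were higher and 2 lower with olaparib (median log2 fold change 0.60; 14.3% and 12.8% of all genes), and 1 was higher and 2 lower with MNA (median 0.10; 16.3% and 12.3%). Without MNA replicate 2, 7 of 14 were higher and 3 lower with olaparib, and 5 higher and 4 lower with MNA, where the shares of all genes were 22.5%, 21.2%, 27.2% and 26.9%. Lgals9, which encodes galectin-9, a ligand of TIM-3, went from 35.1 to 43.3 CPM with DMSO to 80.6 to 97.6 with olaparib (log2 1.18 ± 0.09, adjusted p = 1.66e-05), and was 32.6 to 39.9 CPM with MNA (-0.14 ± 0.09, 0.253). Nectin2, a ligand of TIGIT and CD226, had a log2 fold change of 1.14 with olaparib (0.0011), and with MNA 0.43 (0.0761) in 12 libraries and 0.56 (0.0066) in 11. Tnfsf4, which encodes OX40 ligand, rose from 0.480 ± 0.190 to 2.71 ± 0.665 CPM with olaparib (2.51, 0.0011), and with MNA its values were 1.09 (0.0546) in 12 libraries and 1.37 (0.0026) in 11. Icam1, an adhesion ligand of LFA-1, rose with both, from 19.7 ± 2.24 CPM to 68.0 ± 6.89 with olaparib and 61.6 ± 14.6 in the 3 MNA libraries (n = 3). Cd200, an inhibitory ligand, fell in those 3 libraries from 105 ± 27.0 to 21.6 ± 6.94 CPM (log2 -2.28, adjusted p = 8.21e-06), and in 12 libraries the value was -1.09 (0.145). With olaparib it was -0.88 in both fits, called in 11 libraries (0.0062) and not in 12 (0.251). Tnfrsf14, the herpesvirus entry mediator, had 1.11 (1.25e-05) with MNA in 11 libraries and 0.83 (0.0522) in 12.

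Inhibitory receptors of myeloid cells were counted in the same way, again with no test between the treatments. Of 9 tested, 5 were higher and 1 lower with olaparib (median 0.61) and 1 was higher and 1 lower with MNA (median -0.05), while without MNA replicate 2 the counts of 10 were 7 and 2 with olaparib and 4 and 3 with MNA. The same shares of all genes apply, 14.3% and 12.8% with olaparib, 16.3% and 12.3% with MNA, and 22.5%, 21.2%, 27.2% and 26.9% in 11 libraries. Lair1, a collagen receptor, rose from 32.0 ± 4.25 to 60.9 ± 2.99 CPM with olaparib (log2 0.93 ± 0.12, adjusted p = 0.000462; with MNA 0.18, 0.256, in 12 libraries and 0.29, 0.0165, in 11), and Pirb, a receptor for MHC class I, from 44.6 ± 4.89 to 75.8 ± 5.67 (0.77, 0.000998). A pair of CD300 receptors moved oppositely. Cd300a was lower with olaparib (-0.48, adjusted p = 0.0442) and higher with MNA (0.58, 0.0244), and Cd300lf was higher with olaparib (1.19, 0.0153) and lower with MNA (-0.97, 0.0416). Fcgr2b, the inhibitory Fc receptor, fell in the 3 MNA libraries from 343 ± 55.3 to 114 ± 16.6 CPM (-1.59, adjusted p = 3.50e-07), with -0.96 (0.0522) in 12 libraries. Its value with olaparib was -0.41 (0.379) in 12 libraries and -0.42 (0.0110) in 11. Cd200r1, the receptor for CD200, was higher with olaparib (0.61, 0.0012), and with MNA had 0.24 (0.0668) in 12 libraries and 0.29 (0.0128) in 11.

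Genes of CD40, NF-kappaB and cytokine signaling were counted as lists. They are to be read beside shares of all genes of 14.3% higher and 12.8% lower with olaparib and 16.3% and 12.3% with MNA. Without MNA replicate 2 these shares were 22.5%, 21.2%, 27.2% and 26.9%. Of 16 genes of CD40 and NF-kappaB signaling, all tested, 3 were higher and 2 lower with each treatment, with medians of -0.08 for olaparib and 0.09 for MNA. Without MNA replicate 2 these counts were 3 and 4, and 4 and 3. Map3k14, which encodes the NIK kinase downstream of CD40, rose from 9.32 ± 0.883 CPM with DMSO to 13.5 ± 1.04 with olaparib (log2 0.53, adjusted p = 0.0381) and 20.4 ± 1.82 in the 3 MNA libraries (1.13, 5.24e-07). Tnfaip3, the A20 inhibitor of NF-kappaB, fell in those libraries (-1.09, 7.02e-07), and with olaparib had -0.31 in both fits (0.282 in 12 libraries, 0.0117 in 11). Traf3, which restrains NIK, was lower with olaparib (-0.28, 0.0313) and MNA (-0.25, 0.0467). Traf1 was higher with olaparib (0.58, 0.0327), with -0.04 (0.880) for MNA. Traf5 was higher with olaparib (0.48, 0.0424) and MNA (0.55, 0.0284).

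Of 20 genes of the cytokine receptors, JAK and STAT proteins and IRF factors, 6 were higher and 2 lower with olaparib (median 0.08), and 10 were higher and 2 lower with MNA (median 0.30). Without MNA replicate 2 the counts were 7 and 2 with olaparib and 12 and 4 with MNA, beside the shares of all genes given for the preceding list. Irf1, an interferon-induced factor known to act at the PD-L1 gene, had 46.9 to 69.3 CPM with DMSO, 40.8 to 61.7 with olaparib, 50.8 in MNA replicate 2 and 199 to 303 in the other MNA libraries. It rose with MNA by log2 1.99 (adjusted p = 0.0142) and by 2.31 without MNA replicate 2 (1.71e-07), and its change with olaparib was -0.10 (0.870). Irf2 also rose with MNA (0.52, 0.0202), with 0.10 (0.610) for olaparib. Stat2 was higher with olaparib (0.82, 0.0162) and with MNA (1.02, 0.0144). Ifngr1 was likewise higher with olaparib (0.60, 0.0027) and with MNA (0.32, 0.0422). Socs3, a feedback inhibitor of STAT3, fell with olaparib (-2.55, adjusted p = 0.0019) and with MNA (-1.46, 0.0244), and Stat3 itself fell with olaparib (-0.66, 0.000406; with MNA -0.19, 0.0969, in 12 libraries and -0.23, 0.0401, in 11).

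Of the 6 genes that handle PD-L1 protein, 1 was higher and 1 lower with each treatment in 12 libraries. In 11 libraries the counts were 1 and 3 with olaparib and 3 and 2 with MNA. Shares of all genes, for this list and the T cell list below, were 14.3% higher and 12.8% lower with olaparib in 12 libraries. They were 16.3% and 12.3% with MNA, and 22.5%, 21.2%, 27.2% and 26.9% in 11 libraries. Cmtm6, which keeps PD-L1 at the membrane, rose with olaparib from 115 ± 3.18 to 155 ± 14.5 CPM (log2 0.43, adjusted p = 0.0026), with MNA values of 0.19 (0.0798) in 12 libraries and 0.23 (0.0175) in 11. Cmtm4, its relative with a like role, fell with olaparib (-0.51, 0.0013). Cops5, whose product removes ubiquitin from PD-L1, fell with MNA (-0.44, 0.0265), and with olaparib had -0.21 (0.217) in 12 libraries and -0.22 (0.0081) in 11. B3gnt3, a glycosyltransferase that modifies PD-L1, rose with MNA (1.35, 0.0220). Stub1 had 0.32 (0.0552) with MNA in 12 libraries and 0.42 (0.000773) in 11, and -0.12 (0.468) with olaparib. Of the 8 genes for receptors of these ligands on T cells, 4 passed the filter and 1, Tnfrsf9, was called, higher with MNA (2.79, 0.0215), at a level of at most 2.21 CPM in any library. With olaparib its value was 1.58 (0.138) in 12 libraries and 1.58 (0.0297) in 11, where it was again the 1 gene of the list called with either treatment.

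For each member the 3 genes with the most similar pattern were sought among the 10590 tested genes that averaged 50 counts or more, by Pearson's r of log2 CPM over the 11 libraries. These values are descriptions, since the libraries share their groups. They were Brca1, Dclre1b and Stab1 for Cd80 (r of 0.978, 0.969 and 0.966), Gbp2b, Tmem184c and Rtf1 for Cd83 (0.989, 0.987 and 0.985), and Stx17, Cd2ap and Tmem30a for Cd86 (0.961, 0.955 and 0.951). For Havcr2 they were Tmeff1, Cyc1 and S1pr1 (0.991, 0.988 and 0.985), and for Vsir Pcyt1a, Zswim6 and Cemip2 (0.983, 0.982 and 0.969). Cd40 came closest to Fastkd2, Gle1 and Isg20l2 (0.947, 0.944 and 0.941), and Icosl to Cyfip2, Cfap45 and Dnajc18 (0.949, 0.934 and 0.929). Cd274 came closest to Rilpl2, Ipmk and 0610010F05Rik (0.969, 0.876 and 0.875), and Pdcd1lg2 to Atxn7l1, Anapc7 and Alg13 (0.881, 0.852 and 0.842).

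Genes listed as markers of other cell types moved with the treatments. Whether such cells were present, or had a part in the results above, was not tested. Of 8 genes of mature dendritic cells, which also carry Cd83, Cd86 and Cd40, 6 were called higher with MNA and 2 with olaparib, and in the 11 libraries 6 were higher and 1 lower with MNA and 5 were higher with olaparib. Of all genes, 16.3% and 14.3% were called higher with MNA and olaparib in 12 libraries, and 27.2% and 22.5% in 11. Called lower were 12.3% and 12.8% in 12 libraries, and 26.9% and 21.2% in 11. The same shares apply to the dendritic cell markers below. The summed level of these 8 genes overlapped, at 303 to 401 CPM with DMSO, 305 to 570 with olaparib and 339 to 456 with MNA. Ccl22 and Tmem123 averaged 163 and 140 CPM of a mean sum of 354 with DMSO, so lower genes weigh little in it. Fscn1 averaged 0.134 CPM with DMSO and 3.93 in the 3 MNA libraries, Cacnb3 0.144 and 2.23, and Il4i1 2.90 and 13.7. Marcksl1, the 1 called lower, averaged 32.6 and 25.1 CPM. Ccr7, the chemokine receptor of migrating dendritic cells, had 1 to 12 reads in the DMSO libraries, 20 to 58 with olaparib and 139 to 258 in the MNA libraries other than replicate 2, which had 12. Of 9 dendritic cell markers, Flt3 had at most 7 reads, Clec9a 10, Cd209a 4, Siglech 6, Dpp4 6 and Kmo 11 in any library. Xcr1 had 12 to 69 reads and Zbtb46 had 285 to 578. Itgax was far higher, at 1547 to 1782 CPM with DMSO and 2391 to 2654 with olaparib. In the MNA libraries without replicate 2 it had 1998 to 2349 CPM. Itgax was called higher with both treatments in both fits. Xcr1 was called lower with olaparib in both fits, and Xcr1 and Zbtb46 were lower with MNA in 11 libraries. The summed level of 6 B cell markers was 0.422 to 1.71 CPM with DMSO, 1.41 to 2.96 with olaparib and 3.38 to 6.91 with MNA without replicate 2. That of 8 T and NK cell markers was 0.476 to 1.21, 1.45 to 4.25 and 4.01 to 6.33 CPM. Neutrophil and erythroid markers reached 51.4 and 56.0 CPM in MNA replicate 4. Of the basophil, mast cell and eosinophil markers, Cpa3, Mcpt8, Fcer1a, Epx and Prg2 were at 0 in the olaparib libraries and Ms4a2 at no more than 2 reads, while Siglecf had 30.5 to 58.2 CPM with olaparib and 3.75 to 6.95 with DMSO.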

How the data were processed

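Per the labels and the methods of the study, the authors made stranded mRNA libraries from BMDMs and aligned the reads to GRCm38 with STAR 2.5.2b (the submitters' processing notes also name DESeq2 and R 3.6.0). The deposited values are read counts on Ensembl genes, not normalized, in 1 file for each of the 12 libraries. The strand setting behind these counts is not given in the sources used here, so reads from the antisense neighbors of Cd274, Pdcd1lg2 and Vsir cannot be told apart with certainty. For Pdcd1lg2 and Vsir that overlap holds 0 exon bases. Where nothing says that libraries came from separate cultures or mice, p-values measure only the spread between these libraries.

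Counts were joined by gene ID. Names, positions and union exon lengths were read from GENCODE for GRCm38, where 34490 of the 35275 IDs had a name. Genes were kept by edgeR's filterByExpr (minimum count 10, minimum total 15). The test was the quasi-likelihood F test of edgeR 4.0.16 under R 4.3.3, with TMM normalization, 1 fit for the 3 groups and no block, and with Benjamini-Hochberg adjustment over all tested genes. SE was derived from the F value. The scripts were first tested on simulated data. The alternatives were DESeq2 1.42.0, other normalizations and filters, a replicate block, fits of only the groups compared, stricter thresholds, and each library left out in turn.

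The members and lists were chosen with earlier results of these data known. Genes named outside the cell type lists are the members and the 3 genes most like each member. From each other list they are the up to 3 called genes with the smallest p in olaparib against DMSO. The same was done for MNA against DMSO without MNA replicate 2. In the list of myeloid receptors, 1 gene, Lilrb4a, was not analysed here. Promoter windows came from RefSeq (GRCm38.p6).

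To see whether the replicate numbers pair the libraries, deviations from the group means were correlated across genes. Between olaparib and DMSO, r was 0.227, 0.172, 0.225 and 0.408 for numbers 1 to 4, all above 0.1. Between MNA and DMSO r was 0.242, 0.114, -0.0094 and 0.277 in 12 libraries, not all above 0.1. Without MNA replicate 2, r was 0.179, 0.138 and 0.328, all above 0.1. The calls given first come from the fit without a block, which does not pair the libraries. Calls with the replicate number as a block are given beside them where they differ. Libraries with different numbers were not compared in this way, so these values cannot show that the numbers mark true pairs.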

Additional observations from a re-analysis of the deposited data

Results flagged for a closer look

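Within the groups of 4 libraries, 27 sets of values of the 9 genes were searched for a library whose gap to its nearest neighbor exceeded Dixon's critical value for 4 values. Chance alone marks about 1 in 20 such sets. The search marked 2. Cd274 in DMSO replicate 3, at 336 CPM, lay above the other DMSO libraries by a gap of 0.849 of the range of the group. Havcr2 in MNA replicate 2, at 10.2 CPM, lay above the other MNA libraries by a gap of 0.850 of the range. The library labelled MNA replicate 2 also stood with DMSO over all genes.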

How the results depend on the processing

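Of 672 alternative values of the 9 genes' log2 fold changes, 586 kept direction and call, 46 gained a call, 33 lost it and 7 changed sign. The sign changes were small: leaving out 1 library moved Cd86 with olaparib between -0.24 and 0.077 (0.077, 0.013 and 0.024 without DMSO replicates 1 and 3 and olaparib replicate 2), Vsir with olaparib between -0.12 and 0.050 (0.050, 0.0067 and 0.021 without DMSO replicate 3 and olaparib replicates 1 and 4), and Icosl between olaparib and MNA from -0.74 to 0.13 (without MNA replicate 1). The cause of the other changes was not tested.

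Genes called higher with olaparib numbered 1, and 2 with a replicate block without MNA replicate 2, 3 with DESeq2 without MNA replicate 2, 0 at a threshold of 0.01 and 0 with a 2-fold minimum; leaving out each library gave 1 to 1. Genes called lower with olaparib numbered 1, and 2 with library totals alone and, both with and without MNA replicate 2, with DESeq2, the replicate block and only the compared groups; the count was 0 at 0.01 and 0 with 2-fold, and 1 to 2 when each library was left out. Genes called higher with MNA numbered 3, 4 with DESeq2, 0 with only the compared groups (3 at an unadjusted p under 0.05) and 0 at 0.01, with 0 to 4 when each library was left out. Genes called lower with MNA numbered 0 by edgeR, and 4 with DESeq2, 1 with RLE normalization, 1 with no filter, 1 with a mean of at least 50 counts, 2 with the replicate block, 5 with the block and no MNA replicate 2, 3 with only the compared groups and 4 with DESeq2 without that library, and 0 to 4 when each library was left out. Between olaparib and MNA, 2 were higher (1 with only those groups, 1 at 0.01, 2 to 2 with each library left out) and 3 lower (2 with only those groups, 0 at 0.01, 2 to 3 with each library left out). Calls over all genes moved too. With each library left out, 1231 to 2935 were higher and 921 to 2759 lower with olaparib. With MNA, 408 to 3543 were higher and 55 to 3499 lower. Between the treatments, 987 to 2805 were higher and 916 to 2698 lower. These fits tested 12973 to 13094 genes. Calls over all genes at the stricter thresholds are not given here.

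Fits of MNA and DMSO alone called 0 of 12379 genes by edgeR (4728 at an unadjusted p under 0.05) with MNA replicate 2, and 3428 higher and 3234 lower without it. The fits with DESeq2, or of only the compared groups, without MNA replicate 2 were added after seeing the data. The edgeR fit with the replicate block changed few calls of these 9 genes. In 12 libraries it also called Cd274 with olaparib (-0.40, adjusted p = 0.0393), and Cd80 (-0.50, 0.0243) and Havcr2 (-1.55, 0.0258) with MNA. Without MNA replicate 2 it also called Havcr2 with olaparib and Cd274 with MNA, and no other call changed. Icosl and Pdcd1lg2 were read by few counts. Their SE with olaparib in 12 libraries was 0.60 and 0.39, beside 0.45 for Havcr2, and what widened these values was not tested.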
